A study of Mus musculus with 8 samples.

Results

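The comparison described here is that of footpad skin from Dkk4 transgenic mouse embryos at E16.5 with the same line at E15.5. Its members were chosen by their titles, as the arrays labelled transgenic at either age, and they are 4 of the 8 arrays of the series. The study hybridised RNA of footpad skin to 2-colour Agilent arrays from wild-type embryos and from embryos with a skin-specific Dkk4 transgene, with 2 arrays for each genotype and age. The embryos of all 4 groups were of strain C57BL/6, and transgenic and wild-type embryos of E15.5 and of E16.5 were used. The promoter of the transgene is not given in the sources used here. Each array carried Cy3-labelled RNA of 1 skin sample beside Cy5-labelled reference RNA, a pool of cultured mouse cell lines mixed with RNA of 129ES embryonic stem cells. The labels do not say whether the replicates came from separate embryos, litters or pools, and a p-value therefore reflects only how far these arrays spread, which may be technical.

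Dkk4 is a secreted inhibitor that binds the Wnt co-receptors of the Lrp family and damps signalling through beta-catenin. Mouse footpads are the hairless pads of the paw in which sweat glands form as buds of the epidermis, and Wnt signalling is needed early in that process. Over the same late embryonic days the epidermis stratifies and lays down its cornified layer.

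The deposited files pair no probe with a gene. Names could be given only to probes whose sequence matched a RefSeq promoter window, the 250 bases before and 50 bases after a gene start, over at least 40 bases in 1 place. Of 42006 probes, 225 (0.536%), in 219 genes, were placed within 1 gene of assembly GRCm38.p6 on the same strand. Of the 489 genes in lists of skin, Wnt, Eda, Hedgehog and cell type genes, 1 had such a probe, Acta2, the smooth muscle actin, and its log2 change of -0.07 missed the threshold (limma adjusted p = 0.397). None (0) of the 148 cell type markers had a placed probe, so the labelled tissue could not be checked against its markers, and Dkk4 itself could not be examined. In bulk skin, fewer cells of a type and less RNA per cell cannot be told apart.

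The sequences of the probes that changed most are shown first, since they are the only identity these probes have. The first pair rose and the second pair fell. Capitals mark the 40 bases that the rising pair shares.
Z00059773-1: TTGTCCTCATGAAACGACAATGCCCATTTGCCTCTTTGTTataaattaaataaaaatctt
Z00041156-1: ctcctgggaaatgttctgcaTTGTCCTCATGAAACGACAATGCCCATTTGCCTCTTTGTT
Z00047077-1: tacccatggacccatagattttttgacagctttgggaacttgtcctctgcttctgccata
Z00063695-1: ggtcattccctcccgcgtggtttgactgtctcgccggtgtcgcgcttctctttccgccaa

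For Sec61b and Fau, the largest falls by the naming rule, for Gm36608, the largest rise, and for H2bc7 and H2bc23, whose probes overlap in sequence, 30 bases of the matched probe are given with their place in GRCm38.p6. The Sec61b stretch lies at chr4:47474670-47474699 (+), that of Fau at chr19:6057955-6057984 (+), that of H2bc7 at chr13:23574148-23574177 (-), that of H2bc23 at chr13:21810127-21810156 (-) and that of Gm36608 at chr19:3708138-3708167 (-).
Sec61b: atctacgagagttctgagtgctcggcaact
Fau: ttcttgactccatcttcgcggtagcagcag
H2bc7: ctaagtccgctcccgccccgaagaagggct
H2bc23: aagtccgctcccgccccgaagaagggctcc
Gm36608: gagctatttggagccgatctaacggaagtg
The Sec61b and Fau probes covered transcribed bases at the start of these genes. For a probe placed elsewhere in a gene, exon or intron is not known here.

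Over 1 day many probes changed in transgenic skin, nearly all by little, and the larger changes were mostly rises. Of 31627 probes tested, 10835 (34.3%) passed a limma adjusted p of 0.05. Of these, 5151 (16.3%) were higher at E16.5 and 5684 (18%) were lower. Called changes had a median size of 0.27 on the log2 scale, and 97.7% of called changes were under 2-fold. Changes of at least 2-fold were found in 221 rising probes (0.699% of those tested) and 27 falling probes (0.0854%). At 4-fold or more there were 36 rising probes and 1 falling probe. The log2 ratios of the ages did not overlap for 69.9% of all probes tested.

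**Figure D1:**
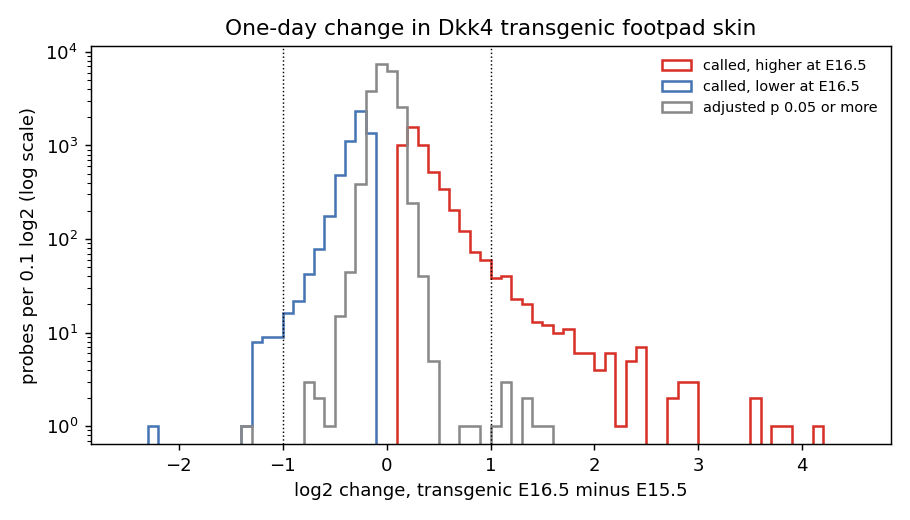
Histogram of the log2 change of each probe tested (horizontal axis, transgenic E16.5 minus E15.5), with the number of probes per 0.1 log2 on a logarithmic vertical axis. Red and blue lines are called probes that rose and fell, grey the probes not called, and dotted lines mark 2-fold. The rising side has the longer tail, with 221 called probes past 2-fold against 27 on the falling side.

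The age groups also differ by slide. The 4 E15.5 arrays of both genotypes were on 1 slide, and the 2 transgenic E16.5 arrays were on another slide with its own scan day, which means that an effect of age and an effect of the slide cannot be told apart. Replicate arrays correlated at 0.9951 at E15.5 and 0.9954 at E16.5 across probes. Cy3 was well above background for 73.9% and 74.3% of probes at E15.5, and for 72.5% and 77.3% at E16.5. Tested alone, the sample channel called 9798 probes (31%) and the reference channel, which held the same RNA on each array, 532 (1.68%). The number of arrays limits the precision. Without the E16.5 transgenic replicate 2 the count fell to 5662, and without the E15.5 transgenic replicate 1 to 6390. With median centring in place of loess the median change of all probes moved from -0.02 to 0.07, and the share of calls that rose went from 47.5% to 90.3%. All 221 rising and 27 falling probes of at least 2-fold kept their direction under that scaling. They were also called there, but that is no check. The p-values of that run, such as a limma adjusted p of 2.29e-282 for Z00059773-1, followed the size of a change and not each probe's spread.

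The most strongly rising probe, Z00059773-1, had log2 ratios of sample to reference of -0.44 and -0.63 at E15.5 and of 3.47 and 3.83 at E16.5. Its Cy3 processed signals were 227 and 180 at the younger age and 10900 and 25200 at the older. Both E16.5 arrays lay far above both E15.5 arrays, and the second E16.5 array was the brighter. The log2 change was 4.18 (SE 0.45, limma adjusted p = 0.000662), from -0.53 ± 0.13 to 3.65 ± 0.25 (SD, n = 2 each). The reference channel alone rose at this probe too, by 1.72 (limma adjusted p = 0.0117), from 370 and 364 to 979 and 1850, and its part in the ratio was not tested beyond the sample channel's own change of 5.49. Z00041156-1, which shares the capitals printed above, had Cy3 signals of 300 and 240 and then 13500 and 35200. Its log2 change was 3.87 (SE 0.46, limma adjusted p = 0.000934), and Cy5 alone rose by 2.20. Since the probes overlap, they are not independent of each other.

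Z00047077-1 had the largest fall. Its Cy3 signals were 16100 and 10100 at E15.5 and 2580 and 1750 at E16.5, while its Cy5 signals stayed between 46.6 and 91.9. The log2 ratio fell by 2.30 (SE 0.30, limma adjusted p = 0.00121), from 6.29 ± 0.32 to 3.99 ± 0.55 (SD, n = 2 each). Z00063695-1 had Cy3 signals of 21900 and 20600 and then 7950 and 9080, with bright reference signals of 57300 to 68800 throughout. Its replicates were close, and its log2 change was -1.30 (SE 0.05, limma adjusted p = 5.74e-05).

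The 221 probes that rose at least 2-fold had a median change of 1.33 with the ratio and 1.36 with Cy3 alone, in which all 221 were called in the same direction. The reference channel alone had a median change of 0.15 in them, against -0.01 over all probes tested. It called 52 of the 221, where it called 1.68% of all probes tested. They formed 210 groups by sequence, as 20 of them shared 25 bases or more with another. The 27 probes that fell at least 2-fold had a median change of -1.12, shared no such run with each other, and were called with Cy3 alone in 24 cases. Their median was -1.06 with Cy3 alone and -0.03 with the reference channel alone, which called 1 of them. In some, Cy3 alone fell by less than 2-fold while Cy5 alone rose by 0.50 to 0.79. They were Z00029032-1, Z00050677-1, Z00032151-1, Z00057511-1, Z00054050-1, Z00029605-1, Z00077901-1 and Z00030602-1. Z00032151-1 (Cy3 -0.36, Cy5 0.79) and Z00029032-1 (Cy3 -0.43, Cy5 0.70) are examples.

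The rising set was not equally high on both older arrays. Replicate 2 of E16.5 lay above replicate 1 in 213 of the 221 probes (96.4%), by a median of 0.29 log2, where over all probes tested it lay above in 51.1%. Replicate 2 of E15.5 also lay above replicate 1 in 79.6% of the rising set, by a median of 0.18, against 52.1% over all probes. Of the falling probes, 4 of 27 were higher on E16.5 replicate 2. The set was chosen on these arrays, so these shares are a description.

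**Figure D2:**
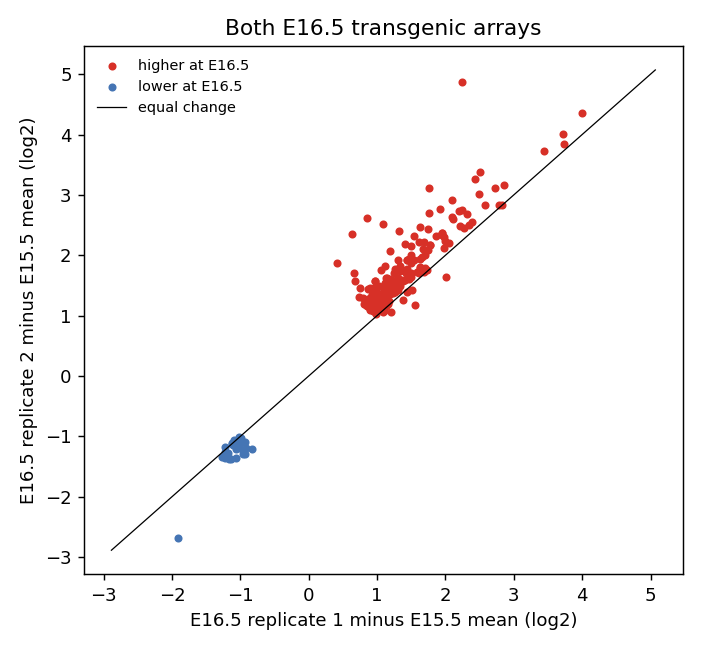
Each point is a probe called with at least a 2-fold change in transgenic skin. The axes give its log2 ratio on E16.5 replicate 1 (horizontal) and on replicate 2 (vertical), each minus the E15.5 mean; the line marks equal change. Red points, the rising probes, lie above the line in 213 of 221 cases.

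Some probes were measured at 1 age only. Cy3 was well above background on both E16.5 arrays and on neither E15.5 array for 182 probes, and the reverse held for 47. Their detection fixes the direction, so calls among them are not counted as results. Against the detection limit of the dim arrays, the highest bound among those past the threshold was at least 12.1-fold higher at E16.5 in the first set and at least 1.19-fold lower in the second. Most probes, 29768, were above background on all 4 transgenic arrays. None (0) of the placed genes described next was called from detection at 1 age.

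Among the probes placed in genes, falls outnumbered rises. Of the genes that passed the naming rule, which also asks that Cy3 alone be called in the same direction, Sec61b, Fau, H2bc23 and Ntng1 fell most, and Gm36608 and Pitpnm2 rose most. Of the 225 placed probes, 168 passed the filter on dim probes and 57 did not. Of those tested, 49 (29.2%) were called against 34.3% of all probes: 11 rose (6.55%, against 16.3%) and 38 fell (22.6%, against 18%). Their median change was -0.04, beside -0.02 over all probes. Of the 225 placed probes, 88 covered the first transcribed bases of a promoter window and 137 lay elsewhere in a gene. The start of a window can lie inside the gene's span, as for Ntng1, whose probe is at base 6484 of the gene. Of 55 tested probes that covered a window's first transcribed bases, 13 fell and 2 rose.

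**Figure D3:**
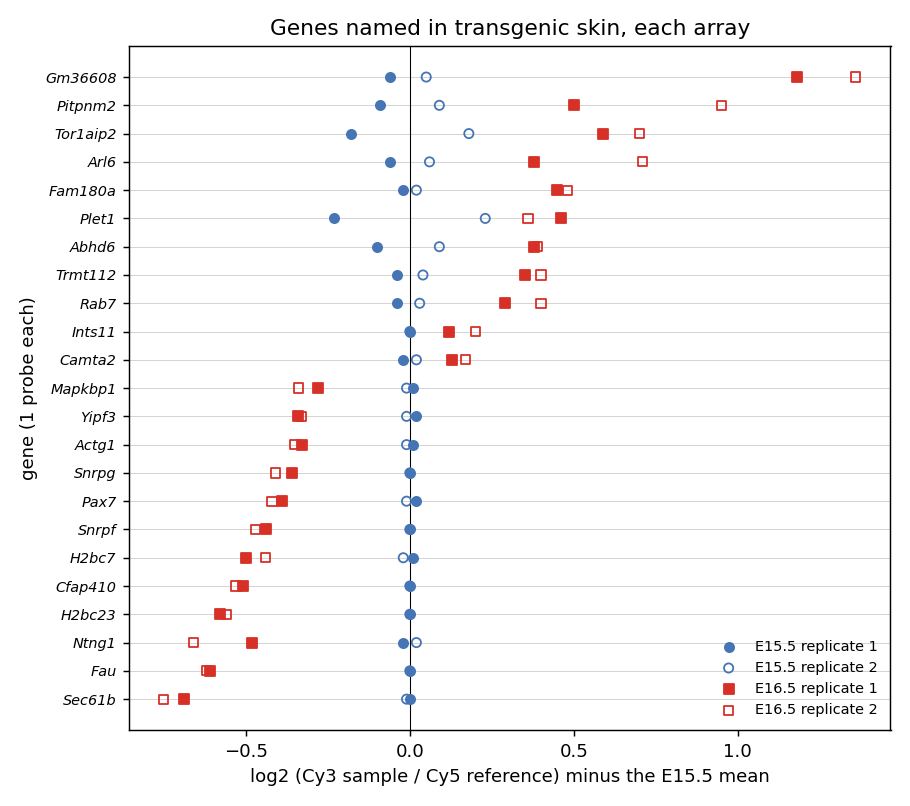
Log2 ratio of Cy3 sample to Cy5 reference on each transgenic array, minus the gene's E15.5 mean (horizontal axis), for the 23 genes named by the rule (vertical axis, 1 probe each). Circles are E15.5 and squares E16.5, filled for replicate 1 and open for replicate 2. Ages that do not overlap were a condition of naming. The E16.5 arrays lie to the right for the 11 rising genes and to the left for the 12 falling ones, and the rule took at most 12 each way.

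Sec61b and Fau had the largest falls among the named genes. Sec61b encodes the beta subunit of the channel through which new proteins enter the endoplasmic reticulum. Its log2 ratios were 0.00 and -0.01 at E15.5 and -0.69 and -0.75 at E16.5, with Cy3 signals of 6980 and 6340 and then 3730 and 4290. Both older arrays were low, and the log2 change was -0.72 (SE 0.05, limma adjusted p = 0.000233). Fau encodes a ribosomal protein of the small subunit fused to a ubiquitin-like protein. Its ratios of -1.23 and -1.23 became -1.84 and -1.85, a change of -0.62 (SE 0.04, limma adjusted p = 0.000227). The replicates of each age were nearly equal. Yipf3, which encodes a membrane protein of the Golgi, fell by 0.34 (limma adjusted p = 0.00116).

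The other ribosomal protein probes did not share the size of the Fau change. Of 4 ribosomal protein genes with 5 probes, a group put together after the values were seen, Fau and Rpl38 fell. A single Rpl38 probe fell by 0.28 (limma adjusted p = 0.00991), while the other, which overlaps it, changed by -0.08 (limma adjusted p = 0.386). The Rpl38 call was lost with Cy3 alone, at -0.12. Rpl10a, at -0.11, and Rps27l, at 0.09, missed the threshold.

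Core histones package DNA, and most are made during DNA replication. The group of 5 core histone genes with 6 probes was put together after the values were seen, and 4 of the genes had a probe that fell, 4 of 6 probes in all. Over all probes tested 18% fell, and over the placed probes 22.6%, and nothing is read from the group's count. H2bc23 had log2 ratios of -0.91 and -0.91 at E15.5 and of -1.49 and -1.47 at E16.5, a change of -0.57 (SE 0.04, limma adjusted p = 0.00029). Its Cy3 signals were 3140 and 2670 and then 1510 and 1860, both older arrays being lower. H2bc7 had ratios of -0.73 and -0.76 and then -1.24 and -1.18, a change of -0.47 (SE 0.05, limma adjusted p = 0.000674). The probes of H2bc7 and H2bc23 share a run of 41 bases, so their signals cannot be assigned to 1 gene with certainty. H2bc11, whose probe shares at most 15 bases in a row with either, fell by 0.28 (limma adjusted p = 0.00407). H4c8, a histone H4 gene, fell by 0.24 at 1 probe (limma adjusted p = 0.0122) and changed by -0.10 at another (limma adjusted p = 0.38). H3f3a, a variant H3 made outside replication as well, changed by -0.15 and missed the threshold (limma adjusted p = 0.077). With median centring, where calls follow the size of a change only, the changes of H2bc7 (-0.26), H2bc11 (-0.18) and H4c8 (-0.11) missed the threshold. That of H2bc23 (-0.34) passed it, which is no check.

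For the 4 histone genes with a called probe, the 150 bases before each start are printed from RefSeq promoters of GRCm38.p6, so that the windows can be compared. They lie at chr13:23574208-23574357 (-) for H2bc7, chr13:22043048-22043197 (+) for H2bc11, chr13:21810200-21810349 (-) for H2bc23 and chr13:23530894-23531043 (+) for H4c8. Capitals mark the letters CCAAT or, on the other strand, ATTGG.
H2bc7: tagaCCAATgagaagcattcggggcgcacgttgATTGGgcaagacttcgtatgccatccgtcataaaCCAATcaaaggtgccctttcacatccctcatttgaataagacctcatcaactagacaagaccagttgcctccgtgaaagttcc
H2bc11: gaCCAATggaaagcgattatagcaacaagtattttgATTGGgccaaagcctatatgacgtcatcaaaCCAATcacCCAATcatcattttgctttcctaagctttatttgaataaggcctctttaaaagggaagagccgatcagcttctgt
H2bc23: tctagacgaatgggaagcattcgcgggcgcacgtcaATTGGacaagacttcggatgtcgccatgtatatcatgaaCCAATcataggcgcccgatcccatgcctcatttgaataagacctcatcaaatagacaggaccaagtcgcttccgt
H4c8: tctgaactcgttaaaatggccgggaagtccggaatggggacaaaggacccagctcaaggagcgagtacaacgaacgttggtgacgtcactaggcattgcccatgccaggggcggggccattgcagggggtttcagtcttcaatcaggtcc
CCAAT on either strand was in the windows of all 3 H2B genes and not in that of H4c8, where 24.5% of 32851 promoter windows hold it in the same bases. The letters TATAAA, in 7.57% of windows on either strand, and ATTTGCAT, in 0.998%, were in none (0) of these 4. A match describes letters only.

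Sm proteins form the ring at the core of the spliceosomal snRNPs. The 2 placed Sm genes, grouped after the values were seen, both fell, where 18% of all probes tested fell. Snrpf had log2 ratios of -0.30 and -0.30 at E15.5 and of -0.74 and -0.77 at E16.5, a change of -0.45 (SE 0.04, limma adjusted p = 0.00048). Snrpg had ratios of -0.95 and -0.95 and then -1.31 and -1.36, a change of -0.38 (SE 0.04, limma adjusted p = 0.00079). The older arrays were the lower ones in both genes. Both calls were lost with median centring, at -0.26 and -0.16, where calls follow the size of a change only. Snrpf is overlapped by a gene on the other strand.

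The remaining falls belonged to genes of varied roles. Ntng1 encodes netrin-G1, a membrane-anchored protein of axon guidance, and its Cy3 signals were 16100 and 13200 at E15.5 and 8180 and 8680 at E16.5. Its ratio fell by 0.57 (SE 0.07, limma adjusted p = 0.00086), with replicates of the older age at 5.03 and 4.85. Actg1, the cytoplasmic gamma actin, had Cy3 signals of 3600 and 3240 and then 1580 and 1650. Its ratio fell by 0.35 (SE 0.07, limma adjusted p = 0.00654), and the reference channel alone fell as well, by 0.74 (limma adjusted p = 0.0104). The Actg1 call was lost with median centring, at -0.07, where calls follow the size of a change only. Pax7, a transcription factor of muscle progenitors, fell by 0.41 (limma adjusted p = 0.00161) and is overlapped by a gene on the other strand. Mapkbp1, which encodes a scaffold protein of the JNK pathway, fell by 0.31 (limma adjusted p = 0.00177), with its probe at base 54938 of a gene of 55014 bases. Cfap410, a gene of cilia, fell by 0.52 (SE 0.04, limma adjusted p = 0.000512), from ratios of -0.31 and -0.31 to -0.82 and -0.84. With median centring the changes of Cfap410 (-0.27), Pax7 (-0.24), Yipf3 (-0.16) and Mapkbp1 (-0.10) missed the threshold, again by size only. The naming rule took all 11 called rises, so the other 26 called probes in genes were falls, of 0.15 to 0.62. Ccdc33 is among them, named after its values were seen: its ratio fell by 0.62 while Cy3 alone changed by 0.18 and Cy5 alone rose by 0.88 (limma adjusted p = 0.00951).

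Among the rises, Gm36608, a long noncoding RNA gene on chromosome 19, had the largest. Its Cy3 signals were 53.4 and 74.7 at E15.5 and 221 and 305 at E16.5, and its Cy5 signals of 14.5 to 22.6 were dim, well above background on 3 of the 4 arrays. The ratio rose by 1.27 (SE 0.09, limma adjusted p = 0.000227). The size varied with the signals used, being 0.95 with Cy3 alone and 2.30 with Agilent's processed signals.

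Next in size were Pitpnm2, Tor1aip2 and Arl6. Pitpnm2, a phosphatidylinositol transfer protein gene, had Cy3 signals of 626 and 667 at E15.5 and of 1000 and 1730 at E16.5. Its log2 ratio went from 0.60 ± 0.13 to 1.32 ± 0.32 (SD, n = 2 each), a rise of 0.73 (SE 0.14, limma adjusted p = 0.00633). Tor1aip2, which encodes a partner of torsin in the endoplasmic reticulum, went from 1.98 and 2.34 to 2.75 and 2.86, a rise of 0.65 (SE 0.11, limma adjusted p = 0.00288). Its neighbour Tor1aip1 lies on the other strand at this place. Arl6, a small GTPase of cilia mutated in Bardet-Biedl syndrome, had ratios of 0.52 and 0.64 and then 0.96 and 1.29, a rise of 0.54 (SE 0.11, limma adjusted p = 0.00613). It also is overlapped on the other strand. Abhd6, a monoacylglycerol lipase gene, rose by 0.39 (limma adjusted p = 0.00312), and Rab7, the GTPase of late endosomes, by 0.35 (limma adjusted p = 0.00384).

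Of the remaining rises, those of Fam180a and Trmt112 kept their call under each alternative run, and those of Plet1, Ints11 and Camta2 did not. Fam180a went from -0.83 and -0.79 to -0.36 and -0.33, a rise of 0.47 (SE 0.05, limma adjusted p = 0.000553). Trmt112, a cofactor of several methyltransferases, rose by 0.37 (limma adjusted p = 0.00223). Plet1 encodes a surface protein of epithelial progenitors, and its Cy3 signals were 4760 and 6290 at E15.5 against 6940 and 8120 at E16.5. The E15.5 arrays were far apart, with a log2 ratio of 2.77 ± 0.33 against 3.18 ± 0.07 at E16.5 (SD, n = 2 each), and the rise of 0.41 (SE 0.12, limma adjusted p = 0.0338) was 0.18 without E15.5 replicate 1 and 0.64 without replicate 2. The Plet1 call was lost in 10 of 18 alternatives, with a highest limma adjusted p of 0.126. Ints11, the endonuclease of the Integrator complex, rose by 0.16 (limma adjusted p = 0.0386) and lost its call in 10 of 17 alternatives, up to an adjusted p of 0.239. Camta2, a calmodulin-binding transcription activator gene, rose by 0.15 (limma adjusted p = 0.0352) and lost its call in 8 of 18, up to an adjusted p of 0.175. Leaving out any 1 transgenic array ended the calls of Ints11 and Camta2.

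The wild-type arrays give the change between the same ages without the transgene. The test of the difference between the genotypes in their age change called 29 probes (0.0917%), and 5989 (18.9%) had an unadjusted p under 0.05. Of tested probes without the letters AATAAA, 92.6% of all, 10.6% were called rising and 11.3% falling in wild type. With the letters, 7.84% rose and 12.5% fell there. The median wild-type change over all probes was -0.01. Of the 221 probes that rose at least 2-fold in transgenic skin, 220 also had a positive change in wild type and 187 were called rising there. Their transgenic median was 1.33 and their wild-type median 0.77, and the wild-type change was the smaller in 218. The probes were chosen by their transgenic change, so this order of the medians supports nothing by itself. The difference itself was called for 2 of them. Of the 27 falling probes, 26 also had a negative change in wild type, 19 were called falling there, and the difference was called for 7. Those 7 went both ways. Z00032151-1, Z00077901-1, Z00050677-1 and Z00054050-1 changed little in wild type, by -0.06 to -0.20. In transgenic skin Cy5 alone rose in each of them, by 0.53 to 0.79, while Cy3 alone fell by 0.36 to 0.71. Z00032151-1, for example, was at -1.12 in transgenic and -0.06 in wild-type skin. Others fell more in wild type, as Z00078092-1, at -1.20 and -1.87. The wild-type E16.5 arrays were on a slide of their own, so genotype and slide cannot be told apart at that age.

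**Figure D4:**
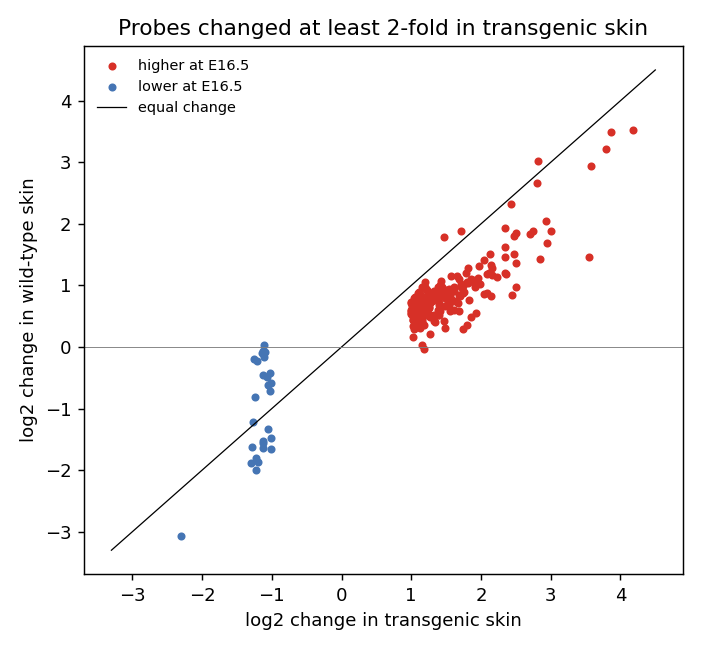
Each point is a probe called with at least a 2-fold change in transgenic skin, with its log2 change from E15.5 to E16.5 in transgenic (horizontal axis) and wild-type skin (vertical axis); the line marks equal change. Of the red rising probes 218 of 221 lie below the line, and 220 lie above 0 in wild type.

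For the named genes the wild-type values were mostly on the same side. Of the rises, those of Tor1aip2 (0.38), Rab7 (0.34), Fam180a (0.31) and Trmt112 (0.27) were also called in wild type. Those of Plet1, Pitpnm2, Arl6, Abhd6 and Ints11 were not, at 0.10 to 0.36, and Camta2 changed by -0.06 there. The wild-type change was -0.93 for Sec61b, -0.64 for Fau, -0.85 for H2bc23, -0.54 for H2bc7, -0.68 for Snrpf and -0.56 for Snrpg, each called falling. The test of the difference had adjusted p-values of 0.186, 0.875, 0.107, 0.604, 0.138 and 0.186 in limma for these genes, which does not show that the changes were equal. Of the 23 named genes the difference was called for Gm36608 and Cfap410. Gm36608 rose by 1.27 in transgenic and changed by 0.21 in wild-type skin (limma adjusted p of the difference = 0.0454). Cfap410 fell by 0.52 in transgenic and by 1.20 in wild-type skin (limma adjusted p of the difference = 0.0454).

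Of the falling probes 12.5% held the letters AATAAA, against 4.8% of the rising ones. Among changes of at least 2-fold, 2 of the 27 falling probes (7.41%) and 19 of the 221 rising ones (8.6%) held them. With so few falling probes no order is read from these shares. AATAAA is the hexamer that directs cleavage of most messenger RNAs near their 3′ end. It was in 2335 of the probes tested (7.38%), and of these 30.4% fell and 10.6% rose. Among the probes without it 17% fell and 16.7% rose. The median change was -0.08 with it and -0.01 without it. Where the hexamer began at bases 1 to 15 of the 60-base probe, 18.8% fell, and at bases 16 to 30, 18.3% fell. Where it began at bases 31 to 45, 33.4% fell, and at bases 46 to 55, 33.8%. Other A- and T-rich hexamers also came with more falls than the 18% over all probes: 26.9% for TAAATA, 24.8% for ATAAAA and 24.7% for ATTAAA. For TTTATT, which is AATAAA read on the other strand, 24.1% fell, and for TTTAAT 22.8%. Probes with AATAAA had a median GC content of 38.3%, and those with the other hexamers of 36.7% to 38.3%, against 45% without AATAAA. The part of base composition was not tested. In wild-type skin 12.5% of the probes with AATAAA fell, against 11.3% of those without. The median change with AATAAA was 0.05 with median centring, beside 0.07 without the letters, and -0.12 beside -0.03 with Agilent's processed signals. The pattern was noticed in these data and has no test, and its cause was not tested.

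**Figure D5:**
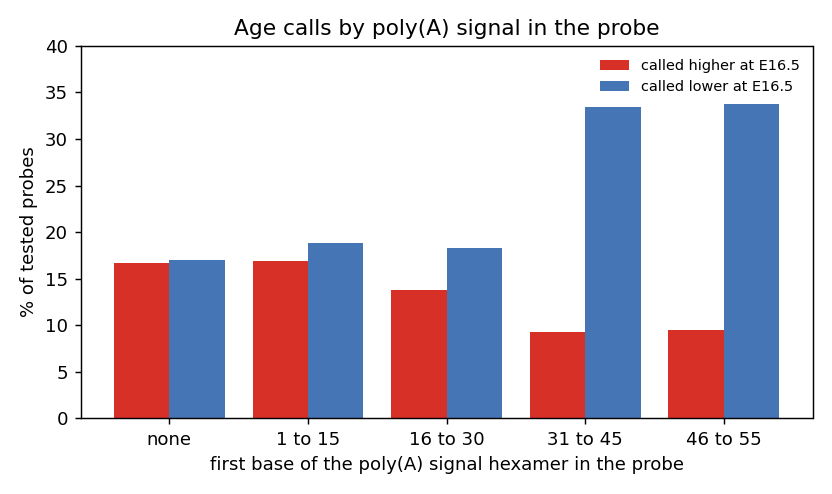
Percent of tested probes called higher (red) and lower (blue) at E16.5 in transgenic skin (vertical axis), by the first base of the hexamer AATAAA in the probe (horizontal axis, none or the range of bases). The falling share is 33.4% and 33.8% in the last 2 ranges, against 17% in probes without the hexamer.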

How the data were processed

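The deposited scanner files hold spot intensities from Agilent Feature Extraction 9.5.1.1, per the file headers, as mean and local background intensity of each channel. The deposited series table of 25030 probes, whose values follow a log10 scale, served as an alternative. How the authors centred it is not given in the sources used here. For the 13 named items it holds, its log2 changes equalled those of Agilent's processed signals to 2 decimals. For Z00047077-1 both gave -1.96, where Cy3 alone gave -2.51. The series table therefore carries the ratio to the reference and repeats that alternative on fewer probes. Cy3 carried RNA extracted from frozen skin with Trizol, per the labels' protocols, and no dyes were swapped.

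Background was corrected with normexp (offset 50), ratios were normalized by loess within arrays with controls at weight 0, and turned to sample over reference, in limma 3.58.1 (R 4.3.3). The offset pulls ratios of dim spots towards 0. The 69 outlier spots were left out, and 31627 of 42006 probes of 60 bases were kept, those whose Cy3 signal passed Agilent's background flag on both arrays in 1 group or more. All 8 arrays entered one model with a mean for each of 4 groups, with 4 residual and 4.22 prior degrees of freedom, with two-sided moderated tests and Benjamini-Hochberg adjustment. Each channel alone was normalized by quantiles. Cy3 and Cy5 signals quoted per array are Agilent's processed signals. The fit was tested on simulated data.

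The plan was to name probes by transcripts or proteins, which were not used here. Exact matches to RefSeq promoter windows took their place, chosen once the files were seen. Named were up to 12 genes each way with the largest change that were called, with Cy3 above background on all 4 transgenic arrays, ages that did not overlap and Cy3 alone called in the same direction, and 2 unnamed probes each way by the same criteria. Members and lists were chosen with earlier results of these data known. Alternatives covered background, signals, normalization, channel, filter, samples, prior, replicate block, threshold, single arrays and a match of at least 50 bases, the last chosen after seeing the data. Same-numbered arrays of the ages deviated with a correlation of 0.11 across probes; the labels do not say that the numbers pair samples.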

Additional observations from a re-analysis of the deposited data

Results flagged for a closer look

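The age change of 2 named genes differed between the genotypes by limma's test of the difference itself. In Gm36608, a long noncoding RNA gene, transgenic skin changed by 1.27 and wild-type skin by 0.21, a difference of 1.06 (adjusted p = 0.0454). In Cfap410, a gene of cilia, transgenic skin changed by -0.52 and wild-type skin by -1.20, a difference of 0.68 (adjusted p = 0.0454). Neither p was far under the threshold of 0.05, and the number of probes called by this test was 0 under several alternatives given below. The cause was not tested.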

How the results depend on the processing

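The age change called 10835 probes. It called 6557 with median centring, 6595 with the series table, which holds fewer probes, and 248 with a 2-fold minimum; without single arrays it called 5662 to 10880. The rising probes of at least 2-fold numbered 221, 332 with Agilent's processed signals, and 164 to 288 without single arrays. The falling ones numbered 27, 125 with Agilent's processed signals, 10 with median centring, 62 with the series table, and 19 to 44 without single arrays. The difference between genotypes called 29 probes, 57 with no background correction, 1 with Agilent's processed signals, 1735 with median centring, 0 with Cy3 alone, 0 with the series table, 0 with no filter, 75 with both channels above background on all transgenic arrays, 73 with the trend and robust prior, 17 with the replicate block, 5 with a 2-fold minimum, and 0 to 103 without single arrays. With limma's main settings 5989 probes had an unadjusted p under 0.05. The cause of these moves was not tested. With median centring the p-values followed the size of a change and not each probe's spread, so its counts of 6557 and 1735 are no check of the others. The series table repeats the ratio of Agilent's processed signals on fewer probes. The replicate block called 10503 probes for the age change and ended the call of Ints11 among the named items. Over 30 named probes and 522 alternative values other than the 2-fold minimum, 45 lost the call and 0 changed direction; 11 of the losses came with median centring. A match of at least 50 bases left 37 of 49 called placed probes. Protein matches, the choice of 1 probe per gene in list counts and the list counts were not run, since no list could be named.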

Other observations

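Olfactory receptor genes, which act in the sensory neurons of the nose, gave 19 placed probes. Of these, 13 were not well above background on any transgenic array, 6 were tested, and 0 were called, with log2 changes of -0.18 to 0.09. Of 3 placed genes of the mitochondrial NADH dehydrogenase, 0 were called, with changes of -0.15 to 0.05. Over all probes tested 34.3% were called. Both groups were put together after the values were seen.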
